A study of Mus musculus with 7 samples.

Results

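The collagen chain genes encode the α chains from which every collagen is built. They were taken from the count table as all protein-coding genes whose GENCODE vM21 symbol reads Col, a number, the letter a and a number, a rule that used no measured value. This gave 44 genes of the 55401 listed, and all 44 had a read in at least 1 mouse. The question was how their transcripts in the fibrotic lung differ between mice with and without hyperbaric oxygen (HBO), by collagen subtype and by mouse.

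The data were bulk RNA-seq read counts from the right lung lobes of 7 male C57BL/6 mice aged 6 to 8 weeks and weighing 20 to 25 g, with 1 library per mouse. All 7 had received bleomycin through the trachea, an antibiotic toxic to cells whose lung injury heals as a fibrotic scar, and mice that lost too little weight were not kept by the study. From day 7 the 3 BLM+HBO mice breathed HBO, oxygen at raised pressure, here 2.5 ATA for 90 min per day on 14 days, and the tissue of both groups was collected on day 21. The sample records say that the 4 BLM mice sat in the chamber without pressurised oxygen, whereas the supplementary methods call them untreated. Lungs without bleomycin were not analysed here, so no level below can be read as normal. Library totals ran from 18157161 to 26365969 counts.

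Collagen chains wind around each other into a rope-like helix, and the helix fits together only where glycine recurs in each Gly-X-Y step of the repeat. Fibrillar collagens (types I, III, V and XI among others) form the tensile fibrils that accumulate in a scarred lung, and type IV forms the sheet of the basement membrane under epithelium and endothelium. Type VI makes beaded filaments around cells, FACIT collagens sit on the surface of fibrils, and smaller groups form other networks, anchor the basement membrane or span the cell membrane. After translation the chains are hydroxylated and folded in the endoplasmic reticulum, trimmed outside the cell and crosslinked by lysyl oxidases.

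The repeat can be read in the coding sequence, and it sets the fibrillar chains apart from the others. In the longest complete coding transcript of each of the 44 chains (GENCODE vM21, GRCm38), the longest unbroken run of codon triplets that start with a glycine codon (GGN) had between 216 and 344 triplets in the 11 fibrillar chains, with a median of 338. The run had 39 to 66 triplets in the 6 basement membrane chains, 37 to 87 in the 6 beaded filament chains and 32 to 113 in the 9 FACIT chains. Of the coding exons of the fibrillar chains, 47.0% were exactly 54 bases long, or 6 triplets, against 4.05% in the basement membrane chains and 25.2% in the FACIT chains. A 54-base exon is shown for chains whose levels are given below, with the glycine codons in capitals and in the sense of the transcript. For *Col1a1* it is the first such exon of the repeat, and for each other fibrillar chain the 54-base exon with most bases equal to it.
Col1a1, coding exon 8, chr11:94939904-94939957, plus strand: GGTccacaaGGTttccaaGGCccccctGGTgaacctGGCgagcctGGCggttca
Col1a2, coding exon 8, chr6:4515481-4515534, plus strand: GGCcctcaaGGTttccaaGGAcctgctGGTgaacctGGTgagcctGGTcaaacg
Col3a1, coding exon 7, chr1:45325805-45325858, plus strand: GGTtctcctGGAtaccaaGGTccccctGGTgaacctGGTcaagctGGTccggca
Col5a1, coding exon 16, chr2:27965597-27965650, plus strand: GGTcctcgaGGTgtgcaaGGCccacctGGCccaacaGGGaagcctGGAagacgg
Col11a1, coding exon 16, chr3:114112035-114112088, plus strand: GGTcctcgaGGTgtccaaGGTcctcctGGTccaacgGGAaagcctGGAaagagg
Col4a1, coding exon 7, chr8:11245211-11245264, minus strand: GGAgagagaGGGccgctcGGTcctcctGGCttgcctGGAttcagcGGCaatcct
The exon of *Col1a2* matched that of *Col1a1* at 42 of the 54 bases, that of *Col3a1* at 38, and those of *Col5a1* and *Col11a1* at 36 each. The type IV exon, the only 54-base exon inside the longest run of *Col4a1*, matched at 25. Over all 54-base exons inside the run of a fibrillar chain, the median number of bases equal to the *Col1a1* exon was between 25.5 and 28.

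**Figure D1:**
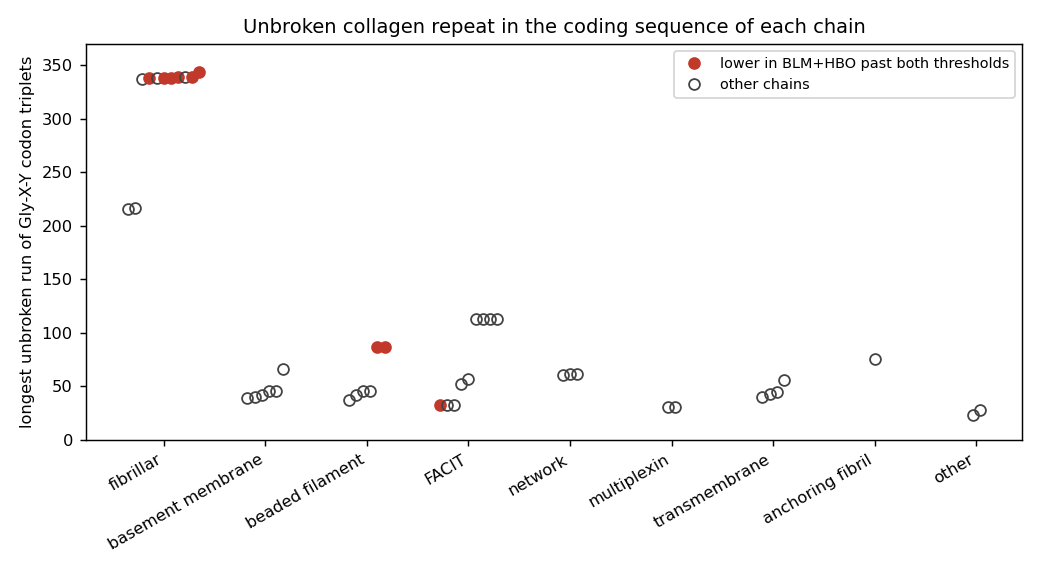
Longest unbroken run of Gly-X-Y codon triplets (y axis, number of triplets) in the coding sequence of each of the 44 collagen chains, by subtype (x axis); filled points are the 9 chains lower in BLM+HBO past both thresholds given below. The fibrillar chains lie between 216 and 344 triplets, and no chain of another subtype is above 113.

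Collagen transcripts made up less of the library in 2 of the 3 BLM+HBO mice. All 44 genes together took 1.95%, 1.57%, 1.38% and 1.37% of the counts in BLM mice 1 to 4, and 0.534%, 1.46% and 0.978% in BLM+HBO mice 1 to 3. BLM+HBO mouse 2 therefore lay inside the BLM range and the other two below it, and the group means were 1.57% ± 0.271 (SD, n = 4) and 0.990% ± 0.463 (SD, n = 3). In bulk tissue, fewer cells that make collagen and less collagen RNA per cell cannot be told apart.

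Levels of different chains were compared as TPM, counts per base of gene model scaled to the same total in every mouse. The order of chains therefore depends on the length of the gene models. That of *Col1a2* has 12426 bases and that of *Col1a1* 6563, although their coding sequences have 1372 and 1453 codons. In BLM the order was *Col4a1* (1089 TPM ± 196, SD, n = 4), *Col1a1* (1081 ± 295), *Col4a2* (980.4 ± 118), *Col3a1* (689 ± 152), *Col1a2* (548 ± 156) and *Col6a1* (395 ± 102). Neighbours in this order differed by less than the larger of their SDs, except *Col4a2* and *Col3a1*. Within every BLM mouse, however, *Col3a1* was above *Col1a2* and *Col1a2* above *Col6a1*. In BLM+HBO *Col4a1* (746 TPM ± 337, SD, n = 3) and *Col4a2* (714 ± 309) came first and *Col1a1* next (473 ± 364), with spreads that overlap. Within every BLM+HBO mouse *Col4a1* and *Col4a2* were both above *Col1a1*. At the other end, 13 chains had a mean under 1 TPM in BLM. Read counts of *Col2a1*, the cartilage collagen, *Col9a1* and *Col9a2*, which coat cartilage fibrils, and *Col19a1*, a rare FACIT chain, stayed at or below 15 in every mouse, and these 4 chains were not tested.

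**Figure D2:**
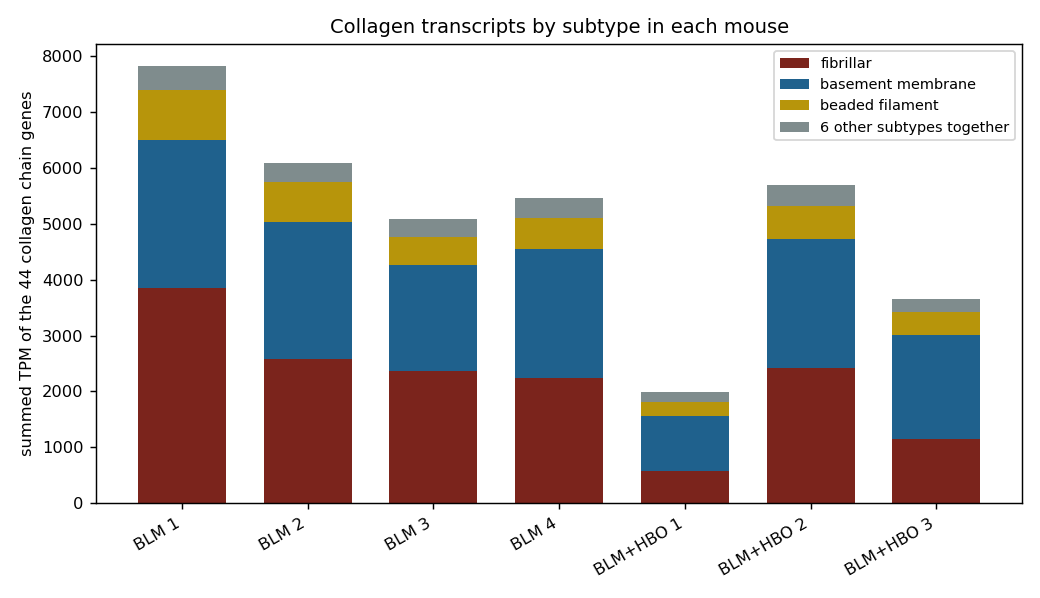
Summed TPM of the 44 collagen chain genes (y axis) in each mouse (x axis), with bars split by subtype. The fibrillar part stands between 2248 and 3840 TPM in the BLM mice, at 578 and 1158 TPM in BLM+HBO mice 1 and 3, and at 2426 TPM in BLM+HBO mouse 2.

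The make-up of the collagen transcripts differed by mouse as well as their amount. Fibrillar chains supplied 49.1%, 42.3%, 46.5% and 41.2% of the collagen TPM in BLM mice 1 to 4, and 29.0%, 42.6% and 31.7% in BLM+HBO mice 1 to 3. Basement membrane chains supplied 34.0%, 40.4%, 37.2% and 42.0% in BLM, and 49.2%, 40.4% and 50.7% in BLM+HBO. BLM+HBO mice 1 and 3 thus had a smaller fibrillar and a larger basement membrane share than any BLM mouse, and BLM+HBO mouse 2 was within the BLM range for both. The larger share was not a larger amount. Summed basement membrane TPM was 980, 2297 and 1856 in BLM+HBO mice 1 to 3, against 1890 to 2656 in the BLM mice. The beaded filament share was 10.8% ± 0.778 (SD) in the 4 BLM mice and 11.5% ± 1.52 (SD) in the 3 BLM+HBO mice, a difference within 1 SD.

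Each gene was tested with edgeR's quasi-likelihood test over all 17465 genes that passed a filter on low counts, 40 of them collagen chains, and a gene was called when it passed both thresholds of the study, unadjusted P < 0.05 and a fold change of more than 1.5. At these thresholds 9 of the 40 chains were lower in BLM+HBO (22.5%, against 2.89% of all genes tested) and 2 were higher (5%, against 3.4%). The chains called lower were *Col1a1*, *Col1a2*, *Col3a1*, *Col5a1*, *Col5a2*, *Col11a1*, *Col6a1*, *Col6a2* and *Col12a1*, and those called higher *Col20a1* and *Col26a1*. The log2 fold change was below 0 in 29 of the 40 chains (48.8% of all genes), with a median of -0.57 against 0.0071 over all genes. After Benjamini-Hochberg adjustment over all genes no chain passed 0.05 by edgeR (lowest adjusted P = 0.423), DESeq2 (0.154) or limma. By edgeR and by limma 0 of all 17465 genes passed, and 0.423 was also the lowest edgeR value over all genes. By DESeq2 0.733% of all genes passed. Before adjustment 12 chains had a P below 0.05 by edgeR, against 10.7% of all genes.

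These counts depended on single mice. Without BLM+HBO mouse 2, 22 chains were lower (5.41% of all genes) and 1 higher (5.29%), the 22 including all 9, the median was -0.80, and 6 chains had an adjusted P below 0.05 (1.49% of all genes), namely *Col1a2*, *Col3a1*, *Col5a2*, *Col8a1*, *Col15a1* and *Col28a1*. Without BLM+HBO mouse 1 only *Col1a1* was called lower (1.76% of all genes), and without BLM mouse 1 only *Col6a2* (also 1.76%). Without BLM mouse 2 the count was 4 (2.43% of all genes), and without BLM+HBO mouse 3 it was 2 (2.07%). BLM+HBO mouse 1 was below every BLM mouse for 27 of the 40 chains (25.7% of all genes), mouse 3 for 21 (24.8%) and mouse 2 for 1 (15.7%). Mouse 2 was within the BLM range for 32 of the 40, and was the highest of the BLM+HBO mice for 29 (31.4% of all genes), whereas mouse 1 was the lowest for 32 (35.2%). Among the BLM mice, mouse 1 was the highest for 21 (29.6%).

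**Figure D3:**
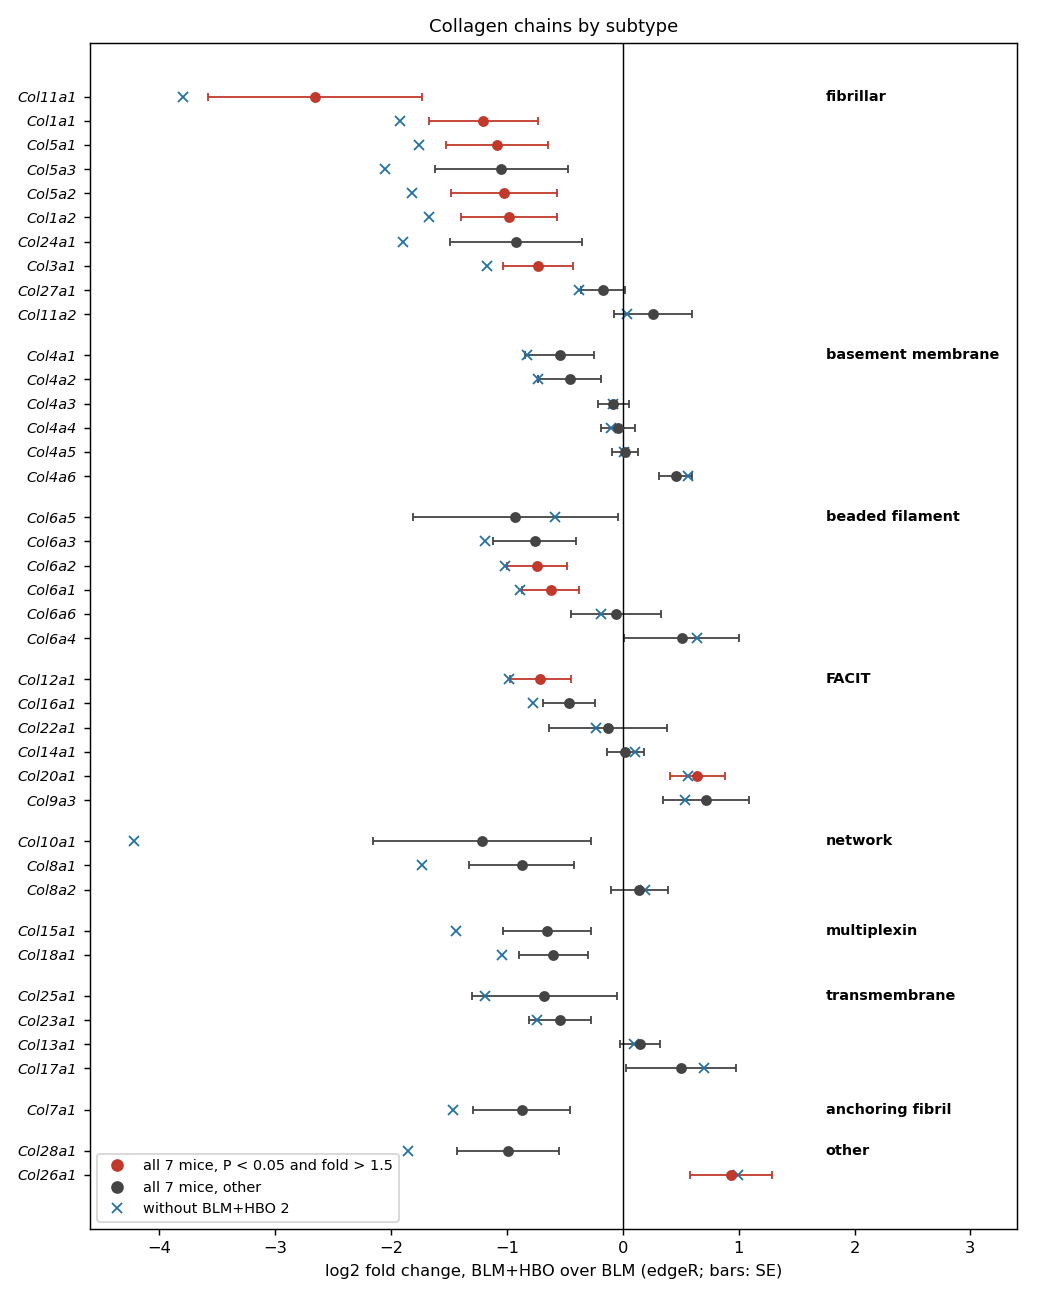
Log2 fold change of BLM+HBO over BLM (x axis) for the 40 collagen chains tested, grouped by subtype; points are edgeR estimates over 7 mice with SE bars, and crosses are the estimates without BLM+HBO mouse 2. The fibrillar chains *Col11a1*, *Col1a1*, *Col5a1*, *Col5a2*, *Col1a2* and *Col3a1* lie between -2.65 and -0.73, whereas *Col4a3*, *Col4a4* and *Col4a5* lie between -0.08 and 0.02.

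Fibrillar chains were the subtype with most calls, 6 lower of 10 tested and none higher, with a median log2 fold change of -1.004. *Col1a1* and *Col1a2* encode the chains of type I collagen, the main tensile collagen of scar. *Col1a1* (chromosome 11, 94936224 to 94953042 on GRCm38) had 3133, 2234, 2177 and 1766 CPM (normalised counts scaled to a common library size) in BLM mice 1 to 4 and 318, 1806 and 910.0 CPM in BLM+HBO mice 1 to 3. BLM+HBO mice 1 and 3 were below every BLM mouse and mouse 2 was above the lowest of them, so the groups overlapped. The log2 fold change was -1.20 ± 0.47 (SE), a 2.30-fold lower level, with an adjusted P of 0.440 by edgeR.

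*Col1a2* (chromosome 6, 4504814 to 4541544) had 3039, 2216, 2008 and 1677 CPM in BLM and 483, 1996 and 920.2 CPM in BLM+HBO, with a log2 fold change of -0.98 ± 0.41 (SE, edgeR adjusted P = 0.458). *Col3a1* (chromosome 1, 45311538 to 45349706), the chain of type III collagen found in the same fibrils and in extensible tissue, had 2821, 2176, 1895 and 1975 CPM in BLM and 769, 2041 and 1197 CPM in BLM+HBO. Its log2 fold change was -0.73 ± 0.30 (SE, edgeR adjusted P = 0.450). In both genes the order of the BLM+HBO mice was that of *Col1a1*, with mouse 1 lowest and mouse 2 inside the BLM range. DESeq2 at the same thresholds called 10 chains lower (3.04% of all genes), 7 of the 9 among them, and did not call *Col1a2* or *Col5a2*.

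**Figure D4:**
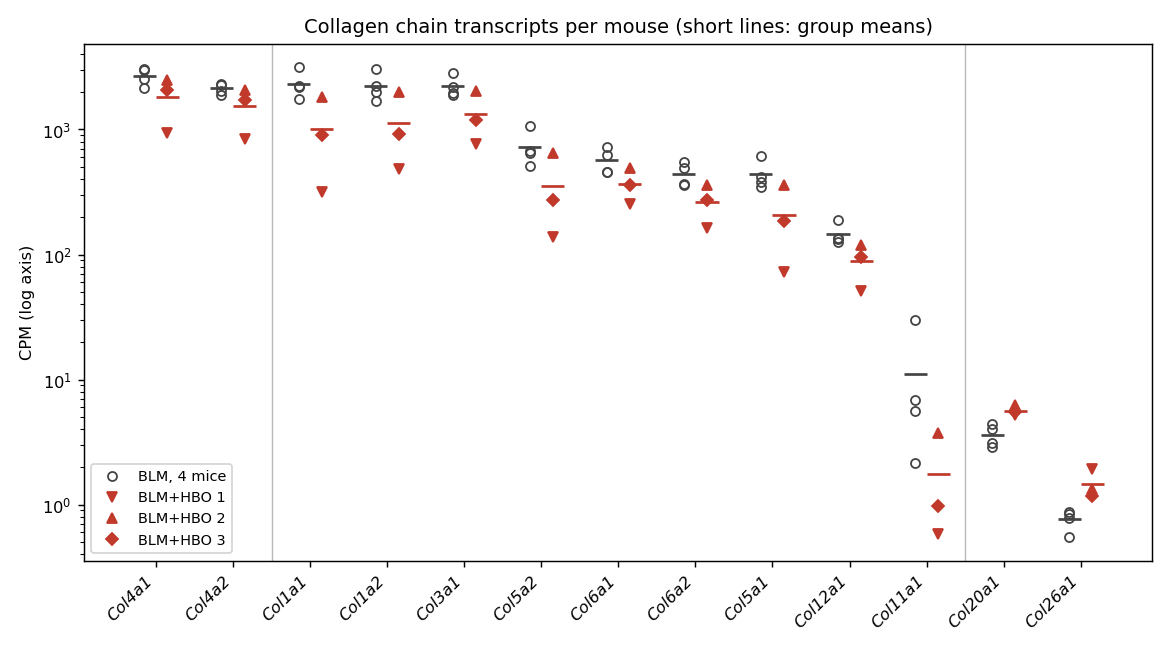
CPM (y axis, log scale) of *Col4a1* and *Col4a2*, the 9 chains called lower and the 2 called higher, in each mouse; open circles are the 4 BLM mice, filled symbols the 3 BLM+HBO mice, and short lines the group means. BLM+HBO mouse 1 is the lowest mouse and mouse 2 the highest of its group in each of the 9 chains called lower, and *Col12a1* is the only one of them whose groups do not overlap.

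Type V and type XI chains, which are built into fibrils in small amounts and set their width, followed. *Col5a1* had 612, 413, 380.2 and 347 CPM in BLM and 72.0, 361 and 186 CPM in BLM+HBO, with a log2 fold change of -1.09 ± 0.44 (SE, edgeR adjusted P = 0.447). *Col5a2* had 1057, 668, 650.3 and 514 CPM in BLM and 138, 652 and 273 CPM in BLM+HBO, with a log2 fold change of -1.03 ± 0.46 (SE, edgeR adjusted P = 0.469). Of the 9 chains its unadjusted P was nearest to the threshold. Again the groups overlapped only through BLM+HBO mouse 2. *Col5a3*, another type V chain, had a log2 fold change of -1.05 ± 0.57 (SE) and was not called (edgeR adjusted P = 0.544).

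*Col11a1* (chromosome 3, 114030540 to 114220718), a type XI chain best known from cartilage, had the largest fold change of the 40 chains tested with all 7 mice. It had 29.8, 5.64, 6.86 and 2.16 CPM in BLM and 0.586, 3.73 and 0.975 CPM in BLM+HBO. BLM mouse 1 was several times higher than the other BLM mice, and BLM+HBO mouse 2 lay above BLM mouse 4. The log2 fold change was -2.65 ± 0.92 (SE, edgeR adjusted P = 0.423). Without BLM mouse 1 it was -1.47 and not called, and it was also not called without BLM+HBO mouse 1 or mouse 3. Of 8 cartilage markers, 4 passed the filter on low counts, 2 with a log2 fold change below 0 and 2 above 0. *Sox9* (-1.20) was called lower, and *Hapln1* (-0.74), *Comp* (0.01) and *Cytl1* (0.89) were not called. The summed level of the 8 was 10.6 to 15.4 CPM in BLM and 10.4 to 14.2 CPM in BLM+HBO. The partner chain *Col11a2*, at 2.86 to 5.58 CPM in BLM and 3.14 to 6.84 CPM in BLM+HBO, did not pass (log2 fold change 0.26 ± 0.34, SE). *Col24a1* and *Col27a1*, fibrillar chains with a shorter run of 216 and 217 triplets, had log2 fold changes of -0.92 ± 0.57 and -0.17 ± 0.19 (SE) and did not pass.

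Basement membrane chains had no call in either direction among 6 tested, with a median log2 fold change of -0.06. *Col4a1* and *Col4a2* form the type IV helix found in nearly every basement membrane. *Col4a1* had 3044, 2965, 2134 and 2535 CPM in BLM and 940.3, 2467 and 2081 CPM in BLM+HBO (log2 fold change -0.55 ± 0.30, SE, edgeR adjusted P = 0.542). *Col4a2* had 2329.8, 2288, 1898 and 2015 CPM in BLM and 838, 2088 and 1731 CPM in BLM+HBO (log2 fold change -0.46 ± 0.27, SE, edgeR adjusted P = 0.570). The spread within BLM+HBO came mostly from mouse 1. Without BLM+HBO mouse 2 the log2 fold changes were -0.82 and -0.73, with edgeR adjusted P of 0.218 and 0.217. Those were the largest differences over 15 alternative settings, and the smallest were -0.23 for *Col4a1* and -0.16 for *Col4a2*.

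*Col4a3*, *Col4a4* and *Col4a5*, the chains of the second type IV network of the alveolar and glomerular wall, lay at 220.3 to 300.1, 253 to 309 and 171 to 212 CPM in BLM and at 229 to 276, 222 to 318 and 179 to 198 CPM in BLM+HBO. Their log2 fold changes were -0.08 ± 0.13, -0.04 ± 0.15 and 0.02 ± 0.11 (SE). *Col4a6*, the rarest of the 6, had 15.4, 16.8, 17.5 and 19.0 CPM in BLM and 24.1, 19.8 and 26.7 CPM in BLM+HBO. Every BLM+HBO mouse was above every BLM mouse, with a log2 fold change of 0.46 ± 0.14 (SE, edgeR adjusted P = 0.423), which is a fold below 1.5. *Col4a3*, *Col4a4* and *Col4a6* were picked for description after their values had been seen. The type IV genes lie head to head in pairs. The annotated starts of *Col4a1* and *Col4a2* on chromosome 8 are 21 bases apart, with the first exons overlapping, those of *Col4a4* and *Col4a3* on chromosome 1 are 72 bases apart, and those of *Col4a6* and *Col4a5* on chromosome X 1309 bases. Counting did not use the strand, so reads in the overlap of *Col4a1* and *Col4a2* were left out, 0.295% and 0.982% of their exon bases being shared with another gene.

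Beaded filament chains had 2 lower calls among 6 tested. *Col6a1* and *Col6a2*, which assemble with *Col6a3* into type VI collagen, had their longest Gly-X-Y runs at 87 triplets each. *Col6a1* had 728, 628, 454 and 461 CPM in BLM and 255, 492 and 361 CPM in BLM+HBO (log2 fold change -0.62 ± 0.24, SE, edgeR adjusted P = 0.440). *Col6a2* had 553, 495, 357 and 368 CPM in BLM and 164, 358 and 274 CPM in BLM+HBO (log2 fold change -0.74 ± 0.26, SE, edgeR adjusted P = 0.423). BLM+HBO mouse 2 exceeded the lowest BLM mouse in both genes, by 358 against 357 CPM in *Col6a2*. *Col6a3* had a similar fold change (-0.76 ± 0.36, SE) and missed the unadjusted threshold by edgeR (adjusted P = 0.492), whereas DESeq2 called it. *Col6a4*, *Col6a5* and *Col6a6* were each under 1 TPM on average in BLM and were not called.

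Among the FACIT chains, 6 were tested, 1 was lower and 1 higher. *Col12a1*, a fibril-surface collagen of dense tissue, had 189.6, 127, 132 and 135 CPM in BLM and 51.4, 119.8 and 96.0 CPM in BLM+HBO (log2 fold change -0.71 ± 0.26, SE, edgeR adjusted P = 0.434). It was the only tested chain of the 40 for which every BLM+HBO mouse was below every BLM mouse, which held for 4.72% of all genes tested. *Col14a1*, its close relative, had 40.4 to 50.3 CPM in BLM and 39.2 to 59.5 CPM in BLM+HBO (log2 fold change 0.02 ± 0.16, SE). *Col16a1* had 101 to 114 CPM in BLM and 48.7, 110.4 and 79.6 CPM in BLM+HBO and did not pass (log2 fold change -0.46 ± 0.22, SE).

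The 2 chains called higher had low levels. *Col20a1*, a FACIT chain, had 3.14, 2.87, 4.39 and 4.05 CPM in BLM and 5.16, 6.22 and 5.55 CPM in BLM+HBO (log2 fold change 0.64 ± 0.24, SE, edgeR adjusted P = 0.434). *Col26a1*, a short chain outside the main subtypes, had 0.551, 0.789, 0.878 and 0.842 CPM in BLM and 1.92, 1.34 and 1.16 CPM in BLM+HBO (log2 fold change 0.93 ± 0.35, SE, edgeR adjusted P = 0.438). The groups did not overlap for either gene, nor for *Col4a6*, which makes 3 of 40 chains against 4.05% of all genes. Without BLM mouse 1 neither was called. *Col20a1* was also not called without BLM mouse 2 or without BLM+HBO mouse 2, nor *Col26a1* without BLM+HBO mouse 1 or with the replicate number as a block in the fit.

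The remaining subtypes had no call, although several chains followed the mouse order of the fibrillar genes. *Col8a1*, the network chain made by vascular and matrix cells, had 90.5, 89.6, 79.1 and 69.2 CPM in BLM and 14.3, 85.4 and 34.8 CPM in BLM+HBO (log2 fold change -0.87 ± 0.45, SE, edgeR adjusted P = 0.524), and -1.73 with an adjusted P of 0.0375 without BLM+HBO mouse 2. *Col7a1*, the anchoring fibril chain, had 76.1, 50.7, 79.1 and 71.7 CPM in BLM and 12.7, 63.6 and 37.2 CPM in BLM+HBO (log2 fold change -0.87 ± 0.42, SE, edgeR adjusted P = 0.494). *Col18a1*, a multiplexin of basement membranes, had a log2 fold change of -0.60 ± 0.30 (SE, edgeR adjusted P = 0.505). *Col23a1*, a transmembrane chain, had 96.3, 85.5, 43.6 and 54.8 CPM in BLM and 39.2, 60.3 and 44.9 CPM in BLM+HBO (log2 fold change -0.54 ± 0.27, SE), with the BLM mice as far apart as the groups.

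Ratios between chains of one mouse do not depend on the scaling of the libraries. Each of 4 was tested by a two-sided exact permutation test over the 35 ways to assign the labels. Its smallest possible P is 0.0571, reached when the groups are fully separated, so no ratio could pass 0.05. The size of a ratio depends on the gene model lengths, whereas the relative difference between mice does not. *Col1a2* per *Col1a1* TPM was 0.512, 0.524, 0.487 and 0.501 in BLM mice 1 to 4 and 0.801, 0.584 and 0.534 in BLM+HBO mice 1 to 3. It was higher in every BLM+HBO mouse than in any BLM mouse, BLM+HBO mouse 2 included (exact permutation P = 0.0571, adjusted over the 4 ratios 0.0762). *Col3a1* per *Col1a1* was 0.602, 0.651, 0.582 and 0.748 in BLM and 1.62, 0.756 and 0.879 in BLM+HBO, again without overlap (exact permutation P = 0.0571, adjusted 0.0762). *Col1a1* relative to its partner chain and to the type III chain was thus lower in each BLM+HBO mouse than in any BLM mouse.

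*Col4a2* per *Col4a1* averaged 0.908 ± 0.0649 (SD) over the 4 BLM mice and 0.966 ± 0.0348 (SD) over the 3 BLM+HBO mice (exact permutation P = 0.229). *Col6a2* per *Col6a1* was 0.399, 0.415, 0.413 and 0.419 in BLM and 0.339, 0.383 and 0.399 in BLM+HBO (exact permutation P = 0.0571, adjusted 0.0762). Every BLM+HBO mouse was below every BLM mouse for this ratio, by 0.3989 against 0.3993 at the closest.

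**Figure D5:**
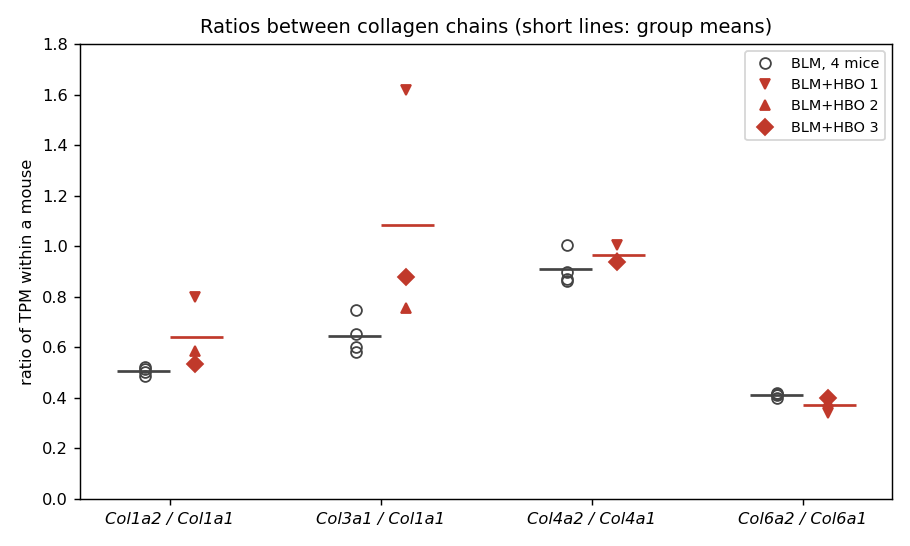
Ratio of TPM between 2 collagen chains within each mouse (y axis) for 4 chain pairs (x axis); open circles are the 4 BLM mice, filled symbols the 3 BLM+HBO mice, and short lines the group means. *Col3a1* per *Col1a1* reaches 1.62 in BLM+HBO mouse 1 and lies between 0.582 and 0.748 in the BLM mice.

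Promoter sequence was compared over chains of all subtypes, so the motif shares below are not those of the chains called lower. The RefSeq promoter table (GRCm38.p6) held windows for 35 of the 44 chains, 38 windows in all, and the 250 bases before each start were searched on both strands. GGGCGG (reverse CCGCCC), the core of a GC box, was in 57.9% of the 38 windows against 32.7% of all 32851 windows. CCAAT (reverse ATTGG) was in 34.2% against 33.8%, and TATAAA (reverse TTTATA) in 13.2% against 12.4%. None of the 3 motifs contains another, and TATAAA can overlap its own reverse. Windows of 3 fibrillar chains called lower, whose bases overlap no annotated exon, are shown because they differ in these letters, with matches in capitals and in the sense of the gene.
Col3a1, chr1:45311288-45311537, plus strand: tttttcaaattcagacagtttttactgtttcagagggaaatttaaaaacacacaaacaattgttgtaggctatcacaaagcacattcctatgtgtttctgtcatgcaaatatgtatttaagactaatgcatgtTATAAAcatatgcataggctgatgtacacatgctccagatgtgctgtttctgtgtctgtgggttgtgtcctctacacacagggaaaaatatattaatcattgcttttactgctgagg
Col5a1, chr2:27886175-27886424, plus strand: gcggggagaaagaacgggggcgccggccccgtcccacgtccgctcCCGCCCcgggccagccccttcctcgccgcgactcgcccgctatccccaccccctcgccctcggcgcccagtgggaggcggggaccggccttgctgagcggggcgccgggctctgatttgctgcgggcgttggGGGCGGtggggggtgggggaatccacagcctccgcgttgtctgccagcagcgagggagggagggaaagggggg
Col11a1, chr3:114030290-114030539, plus strand: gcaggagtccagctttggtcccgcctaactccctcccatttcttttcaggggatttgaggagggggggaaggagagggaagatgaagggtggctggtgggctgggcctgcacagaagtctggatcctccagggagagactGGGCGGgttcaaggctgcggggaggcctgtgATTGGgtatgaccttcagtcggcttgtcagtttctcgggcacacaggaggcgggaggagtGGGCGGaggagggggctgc
*Col3a1* held TATAAA 117 bases before the annotated start and neither other motif, *Col5a1* held GGGCGG in both orientations, at 205 and 73 bases, and *Col11a1* held GGGCGG at 110 and 19 bases and CCAAT in reverse at 79 bases. These windows were shown because they differ, so their lack of a common motif is not a result. The window of *Col1a2*, which overlaps annotated exons, held GGGCGG at 205 and 188 bases and CCAAT at 109 bases. *Col1a1* and *Col5a2*, the other fibrillar chains called lower, had no window.

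Genes that process, bind or break down collagen were examined from lists by textbook role, and 10 of the 50 tested were lower (20%) and 2 higher (4%), beside 2.89% and 3.4% of all genes. The lower genes included the crosslinking enzymes *Lox*, *Loxl1*, *Loxl2* and *Loxl4* and *Adamts2*, which removes the amino propeptide of fibrillar chains. *Lox* had 799, 604, 466 and 338 CPM in BLM and 89.3, 380.2 and 170.3 CPM in BLM+HBO (log2 fold change -1.37 ± 0.45, SE, edgeR adjusted P = 0.423). *Loxl4* had 21.1, 11.05, 11.8 and 11.7 CPM in BLM and 5.43, 9.48 and 6.15 CPM in BLM+HBO, without overlap (log2 fold change -0.99 ± 0.29, SE, edgeR adjusted P = 0.423).

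In the endoplasmic reticulum group of 19 genes, *P4ha3*, a prolyl hydroxylase subunit, and *Fkbp10*, a collagen chaperone, were lower with log2 fold changes of -1.30 ± 0.50 and -0.71 ± 0.24 (SE), and *Colgalt2*, which adds galactose to hydroxylysine, was higher at 0.60 ± 0.21. *Serpinh1*, the collagen-specific chaperone HSP47, was not called (-0.36 ± 0.22, SE). *Pcolce2*, an enhancer of propeptide removal, was higher at 0.86 ± 0.31 (SE). Of 9 genes of breakdown, *Mmp14*, a collagenase on the cell surface, *Ctsk*, a collagen-degrading cathepsin, and *Timp1*, an inhibitor of metalloproteinases, were lower. *Timp1* had 328, 232, 236 and 185 CPM in BLM and 23.5, 186 and 45.9 CPM in BLM+HBO, with mouse 2 again inside the BLM range (log2 fold change -1.53 ± 0.58, SE, edgeR adjusted P = 0.438). None of the 10 collagen receptors was called. Synthesis, crosslinking, breakdown and its inhibitor were thus all represented among the 10 genes lower.

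Markers of the cells in the tissue were read beside these results. Lung epithelial markers were present, at a summed 14175 to 26845 CPM in BLM and 20293 to 44394 CPM in BLM+HBO, with *Sftpa1* and *Scgb1a1* of 6 called higher. Of 8 fibroblast markers 2 were higher (*Tcf21* and *Inmt*) and none lower, and their summed level was 1395 to 2473 CPM in BLM and 2124 to 2891 CPM in BLM+HBO. The fibroblast marker *Pdgfra* had 355, 362, 208 and 272 CPM in BLM and 172, 258 and 195 CPM in BLM+HBO, and *Pdgfrb* 263, 284, 207 and 266 CPM in BLM and 115, 260.3 and 155 CPM in BLM+HBO. For both receptors BLM+HBO mice 1 and 3 were below every BLM mouse, and their log2 fold changes, -0.52 ± 0.21 and -0.53 ± 0.25 (SE), were not called. *Pdgfra* and *Pdgfrb* were the only 2 of the 8 fibroblast markers with a log2 fold change below 0. The other 6 were above 0, and the median of the 8 was 0.33. Of 8 heart muscle markers 7 were higher, all but *Nppa*, with summed levels of 58.7 to 151 CPM in BLM and of 576, 478 and 137 CPM in BLM+HBO mice 1 to 3. Of 5 mesothelial markers 2 were lower (*Msln* and *Wt1*), with summed levels of 587 to 1038 CPM in BLM and 353 to 673 CPM in BLM+HBO. Of 4 basal epithelial markers 3 were lower (*Krt5*, *Krt14* and *Trp63*), at sums of 7.06 to 11.5 and 2.85 to 6.32 CPM. None of 6 alveolar type 1, 6 capillary endothelial, 6 smooth muscle and 5 Schwann cell markers was called, 2 of the last being too low to test. No marker named here was at 0 in every mouse. The part of these cells in the collagen differences was not tested.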

How the data were processed

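Right lung lobes of 4 BLM and 3 BLM+HBO mice were sequenced, with 1 library per mouse. The authors trimmed the reads, mapped them to GRCm38 (HISAT2 2.2.0, per the submitters' processing notes) and deposited raw read counts per gene from featureCounts at default settings, which do not use the strand and count neither multi-mapped reads nor reads shared by several genes. Symbols came from GENCODE vM21; 41 of the 44 collagen identifiers had the same version there. Groups came from the sample titles.

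Low genes were removed by filterByExpr with a minimum count of 10 and a minimum total of 15. Counts were then normalised by TMM (factors 0.964 to 1.036) and tested with edgeR 4.0.16 in R 4.3.3 (quasi-likelihood, common biological coefficient of variation 0.222), with Benjamini-Hochberg adjustment over all genes. The script was tested on simulated data. CPM used the TMM library sizes, and TPM the deposited gene lengths. P-values measure the spread between mice. DESeq2 1.42.0, limma 3.58.1 (trend), other scalings, filters and thresholds, robust empirical Bayes, a replicate block and leaving out each mouse were alternatives.

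The collagen genes, pathway lists and marker lists were chosen with earlier results of these data known, so no list is independent evidence. Named were every chain past both thresholds, the highest chains of each subtype in BLM, the chains of the ratios, the chain with the largest fold change in each direction, chains too low to test and pathway genes past both thresholds; other genes with values were added after seeing them. A count of 3 per library (0.114 to 0.165 CPM) was the detection limit, for counting error only. Exon and promoter sequences came from GENCODE vM21 and RefSeq, with no base read from the mice.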

Additional observations from a re-analysis of the deposited data

Results flagged for a closer look

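In 42 sets of 4 BLM values (among them the total count and the log2 CPM of the named genes), the highest or lowest mouse was set apart from the others by Dixon's ratio in 4, and chance flags about 1 set in 20. The total count of BLM mouse 4 was apart with a ratio of 0.971, because the other 3 BLM totals lay close together. For *Col12a1*, BLM mouse 1 was at 7.57 log2 CPM against 6.99 to 7.08 in the other BLM mice, a ratio of 0.843. BLM mouse 1 was also apart for *Loxl2*, at 7.30 log2 CPM against 6.60 to 6.70 with a ratio of 0.860, and for *Loxl4*, at 4.41 log2 CPM against 3.48 to 3.57 with a ratio of 0.898. BLM mouse 1 was the highest BLM mouse for 21 of the 40 tested chains, and for 29.6% of all genes tested. The 3 BLM+HBO mice are too few for this check.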

How the results depend on the processing

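Leaving out each mouse in turn gave 1 to 22 collagen chains lower, 0 to 3 higher and 0 to 6 past an adjusted P of 0.05, 0 to 8 fibrillar, 0 to 3 beaded filament and 0 to 2 FACIT chains lower, 4 to 16 pathway genes lower and 0 to 2 higher, 303 to 968 genes lower and 345 to 946 higher over all, and a collagen median of -0.80 to -0.30. With limma-trend 18 chains were lower, against 595 genes over all, and 1 pathway gene higher. Without a filter 18 chains were lower, 5 passed an adjusted P of 0.05, 2 FACIT chains were lower, and 863 genes were lower and 1077 higher over all. The share of all genes past an adjusted P of 0.05 without a filter is not given here, so the 5 cannot be read as particular to collagen. Robust empirical Bayes left 3 fibrillar chains lower. A fold change above 2 left 4 chains lower and 0 higher, with 0 beaded filament and 0 FACIT chains, 3 pathway genes lower and 0 higher, and 231 and 278 genes over all. A P below 0.01 left 0 chains lower or higher, 0 fibrillar, beaded filament and FACIT, 2 pathway genes lower and 0 higher, and 159 and 160 genes over all. By edgeR, limma or DESeq2 with the main filter and all 7 mice, 0 chains passed an adjusted P of 0.05, beside 0, 0 and 0.733% of all genes. The causes were not tested, other than the stricter thresholds themselves.

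The sample titles number the mice but state no pairing. Same-numbered mice correlated by -0.008, -0.066 and 0.161 in their deviations from the group means. Mice of different numbers correlated by -0.179 to 0.165. These few values cannot exclude a pairing. With a replicate block 11 chains were lower and 2 higher, against 578 and 675 genes over all, and 0 FACIT chains lower. Among the named chains that were not called, the sign of the log2 fold change turned for *Col14a1* with the block (-0.023) and for 3 chains when single mice were left out, over which it ran from -0.20 to 0.13 for *Col14a1*, from -0.14 to 0.11 for *Col4a4* and from -0.023 to 0.085 for *Col4a5*. The 4 chains too low to test had few reads in every mouse, and whether more depth would bring them in was not tested.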
